A study of Mus musculus with 6 samples.

Results

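Islet genes are the genes of the hormone-secreting cells of the pancreas, and 8 of them were followed in the RNA-seq of Dnmt3b+/− PTCL. They are Ins1, Ins2, Gcg, Sst, Ppy, Iapp, Pdx1 and Chga, 8 of the 34245 genes in the table. They were chosen by their place in islet biology and with their FPKM in the same 3 tumors already known, so their values are a description and no test was made on them. The acinar genes Ctrb1, Cela1 and Cpb1 serve as a reference only.

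The data are 3 peripheral T-cell lymphomas (PTCL), numbered 1 to 3 as in the labels. Each was taken from a lymph node of an FVB/N mouse that was terminally ill and carried the genotype Dnmt3b+/−. The mice are heterozygous for a conventional knockout of Dnmt3b in all cells, and their age and sex were not given in the labels. Total RNA of each tumor was sequenced in bulk as 1 library, and normal CD8+ T-cell libraries and the bisulfite libraries were not analysed here. Tumors 1, 2 and 3 had a depth of 30726570, 18969988 and 20770928 reads. FPKM are the fragments on a gene scaled to the length of its exons and the size of the library. Levels can thus be compared between genes and, only roughly, between tumors. The median-of-ratios factors, a measure of the offset left between libraries, were 1.13, 0.976 and 0.928 in tumors 1, 2 and 3. The labelled T-cell origin was checked on markers, and 10 of 10 T-cell markers with recovered reads had more than 3 reads in each tumor. Cd8b1, at 435, 166 and 443 FPKM, had the highest mean of these markers over the tumors.

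In a healthy pancreas, beta cells make insulin, alpha cells glucagon, delta cells somatostatin and PP cells pancreatic polypeptide. Hormones are cut out of larger precursors by convertases while they are packed into dense granules, which are then released on demand. Islets lie scattered among acinar cells, which make digestive enzymes and form most of the organ.

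The islet genes were nearly silent in these tumors. A gene was taken as detected above 3 reads, since a count of 0 still allows up to 3. In tumors 1, 2 and 3, respectively, 1, 0 and 1 of the 8 genes were detected. Over the 32973 genes whose reads could be recovered, the detected share was 48.2%, 44.4% and 41.8%. No read at all was found in any tumor for 4 of the 8, against 42.1% of all genes. The detected gene was Gcg in both tumors.

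Gcg, which encodes the precursor of glucagon and of the glucagon-like peptides, lies at chr2:62474530-62483650 of mm10 on the minus strand (ENSMUSG00000000394). Its level was 1.35 FPKM in tumor 1, 0.0318 FPKM in tumor 2 and, in tumor 3, 0.193 FPKM. These rest on 62, 0 and 6 reads. Tumor 1 thus stood apart, tumor 3 was just above the limit of 3 reads and tumor 2 had none, where a level up to 0.106 FPKM would go unseen. The exact 95% Poisson interval was 1.04 to 1.73 FPKM in tumor 1 and 0.0710 to 0.421 FPKM in tumor 3, and these intervals cover counting error only. Tumor 1 was 6.99-fold higher than tumor 3, with an interval of 3.03 to 19.8. It was 12.8-fold above the limit of 3 reads in tumor 2, a fold that leaves out the counting error of tumor 1. Tumor 3 was at least 1.83-fold higher than tumor 2, a step within the counting error of its 6 reads. Over the tumors Gcg averaged 0.525 ± 0.719 FPKM (SD, n = 3), which fell to 0.113 FPKM without tumor 1, so this average is carried by that tumor. In tumor 1 itself 31.3% of all genes were at or above the level of Gcg.

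A gene was taken to differ between a pair of tumors at 4-fold or more, after any value below the FPKM of 3 reads was raised to that level. By this rule Gcg was the only one of the 8 that differed between any pair of tumors, against 10% of all genes. It was past this fold in tumor 1 over tumor 2, as were 3.32% of genes, and in tumor 1 over tumor 3, as were 4.56%. None of the 8 was past it in tumor 2 over tumor 3, where 4.21% of genes were. Each tumor is 1 library, so these folds have no replicate check.

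**Figure D1:**
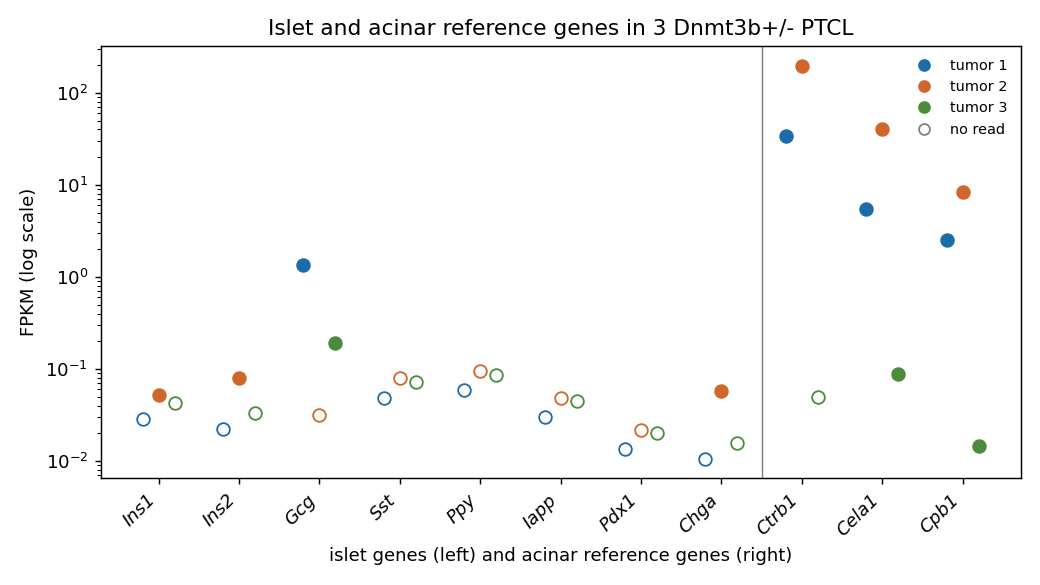
FPKM on a log axis of the 8 islet genes and, right of the line, the 3 acinar reference genes. Each point is 1 tumor and open points are genes without a read, which hold the FPKM of 0.9 read. Gcg in tumor 1, at 1.35 FPKM, is the highest point among the islet genes, while the acinar genes are highest in tumor 2.

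The insulin genes had almost no reads. Ins1 (ENSMUSG00000035804, chr19:52264323-52265456) had 0, 1 and 0 reads in the 3 tumors, which the table lists as 0.0288, 0.0519 and 0.0426 FPKM. Ins2 (ENSMUSG00000000215, chr7:142678656-142743381), the other insulin gene of the mouse, had 0, 2 and 0 reads at 0.0223, 0.0804 and 0.0330 FPKM. Neither gene exceeded 3 reads in any tumor, so no order of the tumors can be read from them and no fold is given. The listed values without a read differ between tumors because the depth differs. A level of up to 0.0961, 0.156 and 0.142 FPKM of Ins1 in tumors 1, 2 and 3 would not have been detectable at this depth.

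The insulin genes are close copies, and a filter on mapping quality can drop reads that fit both. The longest stretch that a transcript of Ins1 shares exactly with one of Ins2 is 56 bases. It is shown because it is the place where the copies cannot be told apart. In Ins1 it lies at chr19:52264894-52264949 of mm10, on the plus strand in exon 2, and in Ins2 at chr7:142678714-142678769, on the minus strand in exon 3. Of its bases 54 are coding and the others belong to the stop codon.
shared by Ins1 and Ins2: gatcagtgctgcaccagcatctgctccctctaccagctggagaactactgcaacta
None of the windows of 150 bases, the length of the reads, is the same in both genes, so a full-length read without errors fits 1 of them better. What the filter removed was not tested.

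The remaining hormone genes had no read in any tumor. Sst (ENSMUSG00000004366), the somatostatin gene of delta cells, was listed at 0.0489, 0.0792 and 0.0723 FPKM in tumors 1, 2 and 3. Ppy (ENSMUSG00000017316), for pancreatic polypeptide, was listed at 0.0586, 0.0949 and 0.0867 FPKM. Iapp (ENSMUSG00000041681), for the amylin that beta cells release together with insulin, was listed at 0.0301, 0.0487 and 0.0445 FPKM. These are the values of 0.9 read and not measured levels. The limits of 3 reads are higher for short genes, and the highest of these limits was 0.316 FPKM for Ppy in tumor 2.

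Pdx1 (ENSMUSG00000029644), a transcription factor of pancreas formation and of mature beta cells, also had no read in any tumor, with a limit of 0.0452, 0.0733 and 0.0669 FPKM in tumors 1, 2 and 3. Chga (ENSMUSG00000021194) encodes chromogranin A, a protein of dense granules in many endocrine cells. It had 0, 3 and 0 reads in the 3 tumors, at 0.0106, 0.0574 and 0.0157 FPKM. The 3 reads of tumor 2 are at the limit and not above it. Iapp and Pdx1 overlap genes on the opposite strand, Slco1a5 and Plut, which had no read either, and the other 6 genes overlap none.

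In tumors 1, 2 and 3 the levels of the 8 genes summed to 1.56, 0.466 and 0.508 FPKM. Much of this is the value that stands in for a gene without a read. With such genes at 0, the sums were 1.35, 0.190 and 0.193 FPKM, resting on 62, 6 and 6 reads. Gcg made up all of the sum in tumors 1 and 3 by this count, and none of it in tumor 2.

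The acinar reference genes had a different order of the tumors than Gcg. Ctrb1, a chymotrypsinogen, had 33.9, 198 and 0.0494 FPKM in tumors 1, 2 and 3, on 914, 3292 and 0 reads. Cela1, an elastase, had 5.46, 40.8 and 0.0873 FPKM on 185, 853 and 2 reads. Cpb1, a carboxypeptidase, had 2.50, 8.40 and 0.0147 FPKM on 252, 523 and 1 reads. All 3 were highest in tumor 2, where no islet gene was detected, and Gcg was highest in tumor 1. The few reads of Ins1, Ins2 and Chga, 1, 2 and 3 respectively, all lay in tumor 2 as well. Were a single read enough, 1, 3 and 1 islet genes would be detected in tumors 1, 2 and 3. The share of all genes at that threshold is not given, so no background stands beside these counts. Fewer cells of a type and less RNA per cell cannot be told apart in bulk tumors.

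The islet sum divided by the sum of these 3 acinar genes came to 0.0374, 0.00189 and 3.36 in tumors 1, 2 and 3. A ratio within a library does not depend on its scale. In tumor 3 it sets 6 islet reads against 3 acinar reads, and the acinar sum there was 0.151 FPKM, so the ratio is poorly determined. With genes without a read at 0, the ratios were 0.0323, 0.000768 and 1.90, in the same order.

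**Figure D2:**
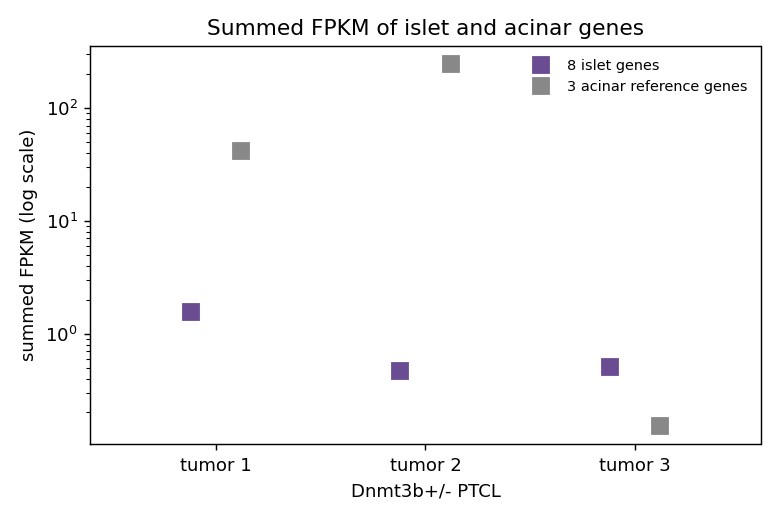
Summed FPKM on a log axis of the 8 islet genes and of the 3 acinar reference genes, 1 point per tumor. The acinar sum is 41.8, 247 and 0.151 FPKM in tumors 1, 2 and 3, and the islet sum lies between 0.466 and 1.56 FPKM.

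Other genes of the islet were described from lists of hormones, transcription factors, granule proteins and glucose sensing. Of 4 other islet hormones, only Ghrl, for ghrelin, was detected, with 0.603, 0.391 and 0.312 FPKM in tumors 1, 2 and 3 on 20, 8 and 7 reads. Npy, Pyy and Ucn3 had no read in any tumor. The list summed to 0.721, 0.582 and 0.487 FPKM, and 1 of its 4 genes was detected in each tumor.

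Among the transcription factors of the endocrine pancreas, Hhex, a factor of delta cells, had 2.05, 0.192 and 1.15 FPKM in tumors 1, 2 and 3, for which reads could not be recovered. Insm1, a factor of endocrine cell formation, had 9, 0 and 2 reads and was thus detected in tumor 1 only. Mafa, of beta cells, stayed at or below 3 reads, with 1, 3 and 0 reads. Neurod1, Pax6, Isl1 and Nkx2-2, which stand for endocrine cells of several kinds, had no read in any tumor.

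Of 14 genes for prohormone processing and granules, 3 were detected in each tumor, and 6 had no read in any. The list summed to 7.10, 0.615 and 0.868 FPKM. Pcsk1, the convertase that opens the insulin and glucagon precursors, had 4.66, 0.00847 and 0.00773 FPKM on 802, 0 and 0 reads. Against the limit of 3 reads and without counting error, it was at least 165-fold higher in tumor 1 than in tumor 2. The fold over tumor 3 was at least 181. Scg5, a chaperone of the other convertase, had 1.43, 0.202 and 0.245 FPKM on 69, 6 and 8 reads. Cpe, which trims the cut peptides, had 0.873, 0.162 and 0.369 FPKM on 70, 8 and 20 reads. Pcsk1, Scg5 and Cpe were all highest in tumor 1, as Gcg was. Pcsk1 and Scg5 were past the 4-fold difference over both other tumors, as were 1.74% of all genes. Cpe was past it over tumor 2, as were 3.32% of genes, but not over tumor 3. A difference over both tumors was not limited to endocrine genes. The T-cell marker Thy1, named after its values were seen, was past it over both as well, with 154, 24.3 and 31.9 FPKM. Ptprn, a membrane protein of the granules, had 0, 4 and 4 reads, and Pcsk2, the convertase of alpha cells, had no read in any tumor.

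Of 13 genes for glucose sensing and secretion with recovered reads, 3, 4 and 3 were detected in tumors 1, 2 and 3, and 6 had no read in any. The list summed to 8.48, 5.25 and 5.38 FPKM. Stx1a, a protein of vesicle fusion, had 7.73, 1.42 and 4.01 FPKM, Ffar1, a fatty acid receptor, had 0.444, 3.54 and 1.10 FPKM, and Cacna1d, a calcium channel, had 0.155, 0.0459 and 0.107 FPKM. The gene detected in tumor 2 only was Gipr, the receptor of a gut hormone, with 6 reads. Abcc8, Kcnj11, Slc2a2 and G6pc2, which define the glucose response of beta cells, had no read in any tumor.

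**Figure D3:**
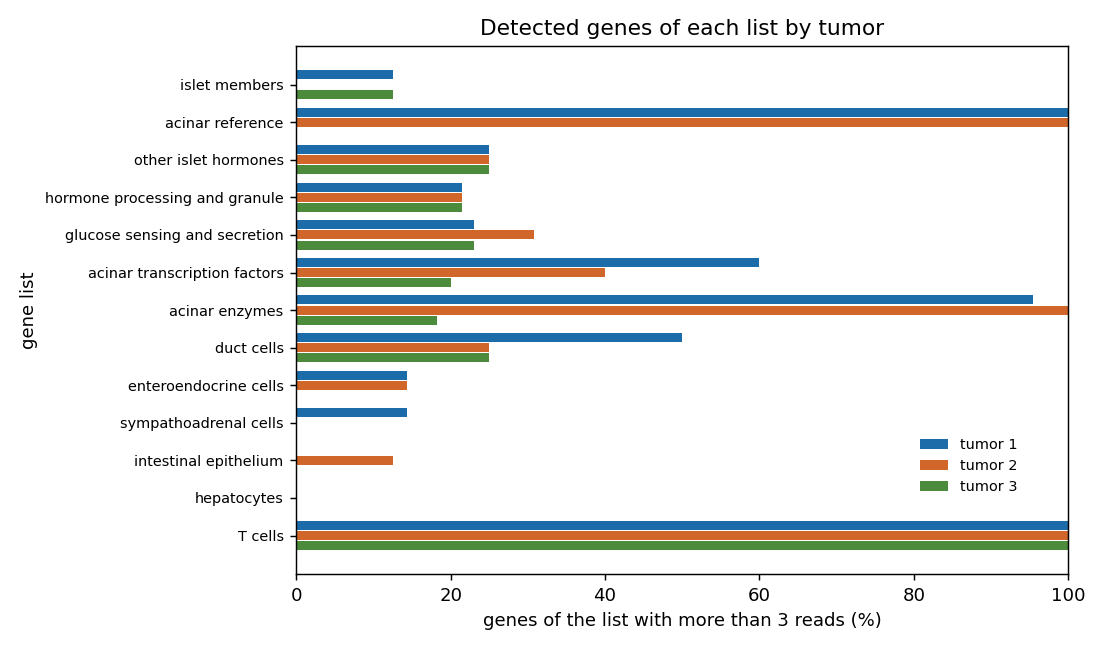
Share in percent of the genes of each list shown with more than 3 reads, 1 bar per tumor. The acinar enzymes are high in tumors 1 and 2 only, and the T-cell markers are at 100% in all.

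Markers of other cells were set beside the islet genes. Of 22 acinar enzymes, 21, 22 and 4 were detected in tumors 1, 2 and 3, with a sum of 121, 606 and 2.38 FPKM. Ctrb1 was the most abundant by its mean over the tumors, although in tumor 3 it had no read and Ctrl, with 23 reads, was highest there. Of 5 acinar transcription factors, 3, 2 and 1 were detected, summing to 0.332, 0.231 and 0.730 FPKM and led by Bhlha15, and Ptf1a had no read. Of 8 duct markers, 4, 2 and 2 were detected, summing to 0.638, 0.616 and 0.170 FPKM and led by Muc1 in their mean over the tumors. In tumor 1 the highest of them was Cftr, a chloride channel, with 87, 0 and 0 reads. Slc4a4, a bicarbonate transporter, had 29, 3 and 4 reads. Cftr and Slc4a4 were both past the 4-fold difference in tumor 1 over both others, as were 1.74% of all genes. The other detected duct markers, Muc1 with 8, 20 and 4 reads and Krt7 with 4, 11 and 0, were highest in tumor 2. Both were past the 4-fold difference in tumor 2 over tumor 3, as were 4.21% of all genes.

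Of 7 gut endocrine genes in the table, 1, 1 and 0 were detected in tumors 1, 2 and 3, summing to 0.344, 2.05 and 0.359 FPKM. These sums rest on 20, 24 and 0 reads, so that of tumor 3 is not a measured level. Sct, for secretin, led these genes with 20 reads in tumor 2 and none elsewhere. Tph1, the first enzyme of serotonin synthesis, had 20 reads in tumor 1 and none elsewhere, and was named after its values were seen. Gut cells also make Gcg, and of 8 markers of intestinal epithelium 0, 1 and 0 were detected, summing to 0.250, 0.465 and 0.371 FPKM with Muc2 the most abundant by its listed FPKM, although without a read. The detected one was Vil1, with 5 reads in tumor 2. Of 7 sympathoadrenal markers with recovered reads 1, 0 and 0 were detected, summing with Slc18a2 to 1.09, 0.575 and 0.716 FPKM, Slc18a2 being the most abundant and Slc18a1, with 6 reads in tumor 1, the detected one. Reads of Slc18a2 could not be recovered. Of 7 hepatocyte markers with recovered reads none had a read in any tumor. The listed sum of 0.160, 0.260 and 0.237 FPKM and the place of Apoa2 at its top thus follow from depth and gene length and are not measured levels. The part of these cells in the level of Gcg was not tested.

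Of the FPKM of Gcg summed over the tumors, 85.7%, 2.02% and 12.3% lay in tumors 1, 2 and 3. The share of tumor 2 rests on no read and is the value of 0.9 read, and that of tumor 3 rests on 6 reads. Genes could therefore not be ranked by how closely they follow this pattern, and none is named for it.

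The genes beside Gcg were looked at after its values were seen. Within 200 kb of Gcg the table lists 8 genes, and 3 of them, Dpp4, Gm13561 and Slc4a10, were past the 4-fold difference in tumor 1 over both others, as were 1.74% of all genes. Dpp4, the protease that cleaves glucagon-like peptides and is also the T-cell antigen CD26, had 24.7, 0.759 and 1.42 FPKM on 4801, 91 and 187 reads. It lies on the same strand as Gcg, with 62.3 kb between them. Gm13561, on the opposite strand and 3.62 kb from Gcg, had 41, 1 and 2 reads. It overlaps Dpp4, and since the strand of the reads is not known here, it may not be a separate signal. Slc4a10 had 57, 0 and 0 reads. Fap, the next gene on the other side, at 17.3 kb, had 0.247, 0.0652 and 0.136 FPKM and did not pass the fold. Pcsk1 has no listed gene within 200 kb. Whether the position of Gcg has a part in its level was not tested.

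**Figure D4:**
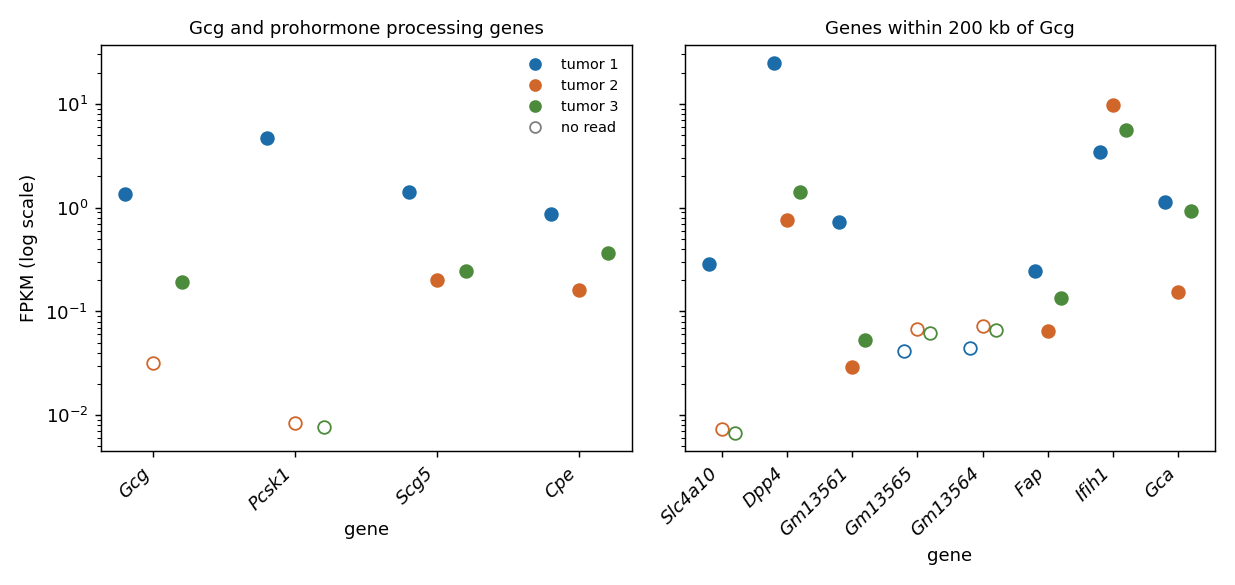
FPKM on a log axis of Gcg and the 3 genes for prohormone processing and granules with the highest mean (left) and of the 8 genes listed within 200 kb of Gcg (right). Each point is 1 tumor and open points have no read. Gcg, Pcsk1, Scg5, Cpe, Dpp4, Gm13561, Slc4a10, Fap and Gca are highest in tumor 1, while Ifih1 is highest in tumor 2 at 9.77 FPKM.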

How the data were processed

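RNA-seq of 3 Dnmt3b+/− PTCL was analyzed. The FPKM were deposited by the authors, who used STAR to align trimmed paired-end reads to mm10 and SeqMonk to quantify those of mapping quality 50 or more. Versions and strand use are not given in the sources used here. Genes with no read are listed at the FPKM that 0.9 read would give, from which each depth followed. Reads were recovered with GENCODE M21 exon lengths, also clipped to the listed gene, for 96.3% of the 34245 genes, where values lay within 0.02 of whole reads. For 2.26% of genes, Cela1 among them, the length was that of 1 transcript, taken because it gave whole reads. The units may be reads or fragments.

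The members and lists were chosen with earlier results of these data known. Named were the 8 islet and 3 acinar genes, the 3 genes of each list with the highest mean FPKM, and islet-list genes 4 times higher in tumor 2 than 3. The 5 genes most like Gcg were to be named but are left out, since Gcg had no read in tumor 2. A repeated symbol took the gene of highest mean FPKM. Other list genes and the genes beside Gcg were named after their values were seen. Lists were counted over genes with recovered reads. Results that rest on some of the transcription factors, that list's counts and sums included, are not reported here. With 1 group, no test was made.

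Alternatives were other read, FPKM and fold thresholds, log2(FPKM + 0.1), rescaling to 1000000, median-of-ratios factors, genes without a read at 0, all acinar enzymes and each tumor left out. The recovery and fold steps were tested on simulated data. Analyses were run in Python 3.11 with NumPy 2.4.6, SciPy 1.17.1, pandas 2.3.3 and, for figures, matplotlib 3.10.9.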

Additional observations from a re-analysis of the deposited data

How the results depend on the processing

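The count of 1 islet gene past the fold was the same at 2-fold, at 10-fold, with log2(FPKM + 0.1) and with median-of-ratios factors. At 10-fold, however, Gcg passed in tumor 1 over tumor 2 only, since tumor 1 was 6.99-fold higher than tumor 3. The pass over tumor 2 rests on the 12.8-fold value, which leaves out counting error. Detected genes numbered 3 in tumor 2 when a single read was enough, which turns it from the lowest tumor to the highest. In tumor 3 they numbered 0 when 10 reads or an FPKM above 0.2 were asked for. The call of Gcg in tumor 3 thus depends on the threshold. Shares of all genes at these other thresholds are not given, so the counts have no background beside them. Rescaling FPKM to sum to 1000000 moved the summed level to 8.28, 2.25 and 2.27 in tumors 1, 2 and 3 and the mean of Gcg to 2.72, because it multiplies every value of a tumor by 1 factor. With all acinar enzymes as the reference, the ratio was 0.0129, 0.000769 and 0.213 in tumors 1, 2 and 3, a smaller value with the same order, because more genes are in the denominator. The mean of Gcg was 0.113 to 0.772 FPKM when 1 tumor was left out. Of 68 alternatives 52 moved a value by less than its spread or counting interval, which are wide here.

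Depth limits these results. With 6 reads or fewer behind every islet gene but Gcg in tumor 1, counting error spans several-fold. A gene at or under 3 reads was not detectable at this depth, which does not show that it is absent. With 3 tumors of a single group, no difference between conditions was tested.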
